A study of Mus musculus with 6 samples.

Results

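The genes described here are 10 genes of parathyroid hormone (PTH) and cyclic AMP (cAMP) signalling in mouse osteoblasts, out of 24016 genes in the deposited table. They were chosen by name, as a ligand (*Pthlh*), its receptor (*Pth1r*), the stimulatory G protein (*Gnas*), an adenylyl cyclase (*Adcy7*), a regulatory subunit of protein kinase A (*Prkar2b*), 4 phosphodiesterases (*Pde3a*, *Pde4b*, *Pde4d* and *Pde7b*) and a cAMP-responsive transcription factor (*Crem*). The choice was made with earlier results of these data known. All 10 symbols were found by their Ensembl identifiers.

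Wild-type MC3T3-E1 cells, a mouse preosteoblast line of which subclone 4 was used, were differentiated for 6 days in medium with β-glycerophosphate (10 mM) and ascorbic acid (50 μg/ml). For the next 24 h they received either vehicle or corticosterone at 100 nM, a glucocorticoid hormone of the mouse adrenal gland. According to the labels, 10 nM calcitriol, the hormonal form of vitamin D, was present in the treatment medium. RNA-seq was performed on 3 vehicle and 3 corticosterone libraries, described as biological replicates, so the p-values measure the spread between these 3 libraries of 1 cell line.

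PTH and the PTH-related protein (PTHrP) bind the receptor PTH1R on osteoblasts, which couples to the stimulatory G protein Gsα. Gsα activates adenylyl cyclases, and the cAMP they make releases the catalytic subunits of protein kinase A from its regulatory subunits. Phosphodiesterases break cAMP down, and CREB and CREM factors carry the signal to target genes. Through this pathway PTH governs bone formation by osteoblasts and their control of osteoclasts.

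The read depth on genes ranged from 16020401 to 25638645, and every corticosterone library was shallower than every vehicle library. The table gives reads scaled by a single factor for each library, here termed normalized counts. A gene with 3 reads, taken as the floor for counting error, has a normalized count of 2.32 to 3.84. Of 10 osteoblast marker genes, all were in the table and 9 had a mean normalized count of at least 10, with *Phex* at 5.23. Their sum was lower with corticosterone, 1182820 to 1238353 against 1357907 to 1404035 with vehicle, almost wholly *Col1a1* and *Col1a2*. Markers of endothelial cells summed to 12.8 at most and those of muscle to 23.9 at most. The 2 measured adipocyte markers summed to 7.72 to 21.1 with vehicle and 108 to 133 with corticosterone, almost wholly *Fabp4*. Those of macrophages and osteoclasts summed to 1823 to 1981 and 1430 to 1493, almost wholly *Ctsk*, while the defining marker *Csf1r* had a mean of 18.7 and *Acp5* of 0.693. Chondrocyte markers summed to 3543 to 3956 and 2985 to 3017, where *Col2a1* and *Sox9* fell and *Col10a1* rose. The part of these shifts in the results below was not tested. In bulk RNA, fewer cells of a type and less RNA of a gene per cell cannot be told apart.

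To ask which steps of the pathway changed at the RNA level, limma was fitted to log2(normalized count + 0.1) for all 24016 genes, with p-values adjusted over all of them. Genes are said to have risen or fallen where the adjusted p was under 0.05. Of the 10 genes, 2 fell, *Pth1r* and *Prkar2b*, and 0 rose. At an unadjusted p under 0.05, 1 gene was higher (*Adcy7*) and 2 were lower, and edgeR and DESeq2 on the recovered reads also called 2 lower and 0 higher. Over all genes 8.49% rose and 8.2% fell, together 16.7%, so that the 20% of the 10 genes lay near the background. The study's own threshold, set there on DESeq2 results, also asks for an absolute log2 fold change over 1. Applied here to limma, it was passed by *Pth1r* alone among the 10 and by 1.38% (higher) and 1.4% (lower) of all genes. In 5 of the 10 genes the treatments did not overlap, with corticosterone lower in 4 and higher in 1, against 29.6% of all genes. A mean of at least 10 was reached by 9 of the 10, and among all genes at that mean 43.8% did not overlap and 27.7% were called. The median log2 fold change of the 10 was -0.17, beside -0.01 for all genes. The balance of calls over all genes, 2040 risen and 1970 fallen, was 1349 and 2595 with upper-quartile scaling and 1703 and 2521 with libraries scaled to the same total.

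**Figure D1:**
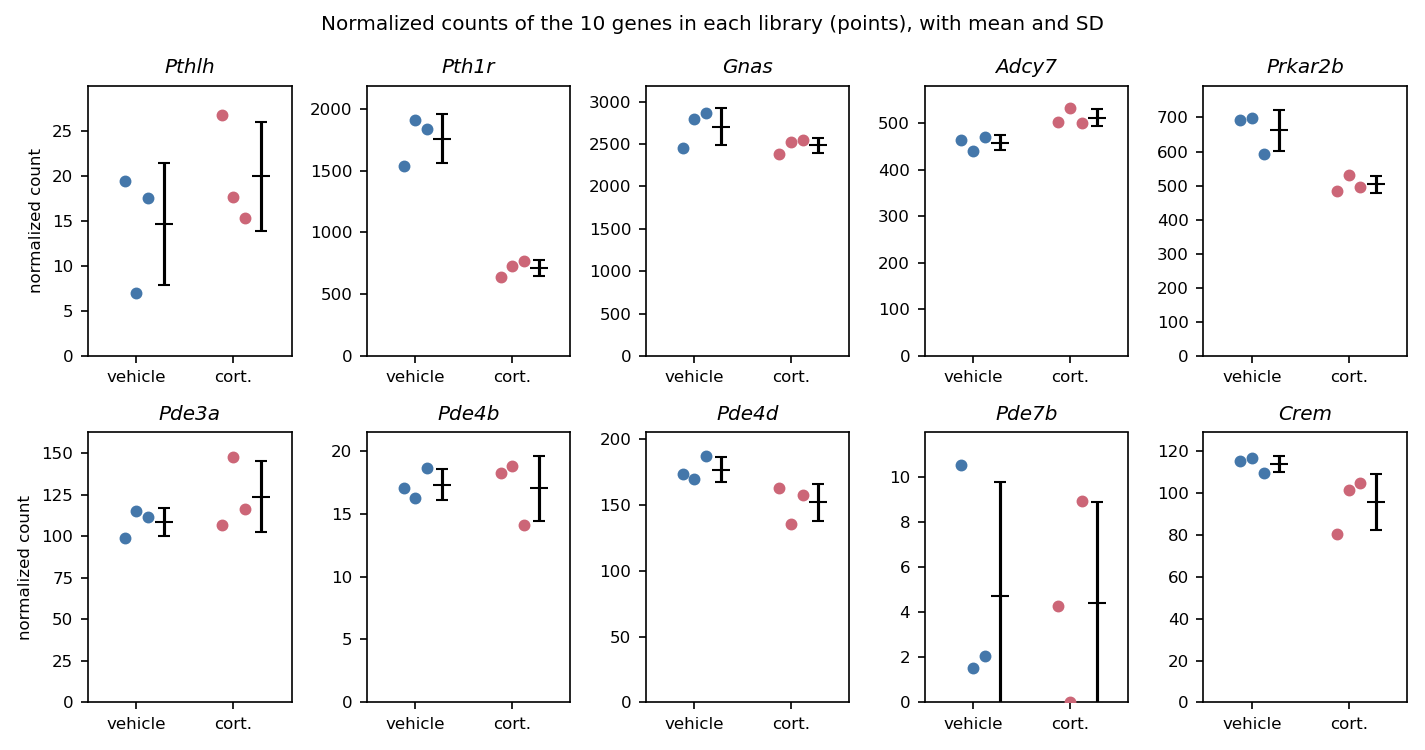
Normalized count (vertical axes from 0, a separate scale for each gene) of the 10 genes in the 3 vehicle and 3 corticosterone (cort.) libraries, with the mean and SD of each treatment beside the points. The treatments separate fully in *Pth1r*, *Prkar2b*, *Adcy7*, *Pde4d* and *Crem*, of which *Pth1r* shows the widest gap, from 1536 or more down to 768 or less.

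*Pthlh* (ENSMUSG00000048776, chromosome 6, 147252101 to 147264183 of GRCm38, minus strand) encodes PTHrP, the ligand that osteoblast-lineage cells can make themselves. Its normalized counts were 19.5, 6.95 and 17.6 with vehicle and 26.8, 17.7 and 15.4 with corticosterone. The treatments overlapped, and the second vehicle library was the lowest of the 6. These values rest on 9 to 25 reads per library. The log2 fold change was 0.53 (SE, standard error of the fit, 0.45, limma adjusted p = 0.527), and its 95% interval of -0.43 to 1.49 shows that only a large difference would have been detectable at this depth. Leaving out 1 library in turn moved it from 0.07 to 0.80. PTH itself is made by the parathyroid gland, and *Pth* and *Pth2* had no row in the table.

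*Pth1r* (ENSMUSG00000032492, chromosome 9, 110722085 to 110747145 of GRCm38, minus strand) encodes the receptor of both PTH and PTHrP. Its normalized counts were 1536, 1909 and 1835 with vehicle and 640.2, 731 and 768 with corticosterone. The treatments were wide apart, since the highest corticosterone library had 768 and the lowest vehicle library 1536. The mean fell from 1760 ± 197 to 713 ± 65.6 (SD, n = 3 per treatment; log2 fold change -1.30, SE 0.08, 95% interval -1.47 to -1.13, limma adjusted p = 5.19e-09). In linear terms the corticosterone mean was 0.405 of the vehicle mean. Between 598 and 2473 reads stood behind each value. Of the 10 osteoblast markers 7 fell as well, 1 (*Spp1*) rose and 2 did not pass the test, and their part in the change of *Pth1r* was not tested. The call held under all 22 alternative settings tried, with log2 fold changes of -1.40 to -1.23. A two-sided exact permutation test of 3 against 3 libraries gave p = 0.1, the smallest it allows, as it did for the other 4 genes whose treatments did not overlap.

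Of the exon bases of *Pth1r*, 3.25% also lie in exons of *Myl3* on the opposite strand. The library kit does not mark strand, but *Myl3* had a mean of 13.8, far under that of *Pth1r*. To show the DNA next to the start of the gene with the largest change among the 10, the 250 bases before the most upstream of 3 annotated *Pth1r* starts are given from RefSeq (GRCm38.p6, chr9:110747146-110747395, minus strand), 5′ to 3′, with 2 short motifs in capitals.
Pth1r promoter: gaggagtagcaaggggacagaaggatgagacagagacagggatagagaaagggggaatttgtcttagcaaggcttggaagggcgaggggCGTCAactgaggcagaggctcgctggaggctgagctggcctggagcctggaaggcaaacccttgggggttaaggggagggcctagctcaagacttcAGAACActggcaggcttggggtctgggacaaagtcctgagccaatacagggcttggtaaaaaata
The first capitals, CGTCA, are the short form of the cAMP response element, TGACG, read on the other strand, beginning 161 bases before the start. The second, AGAACA, is 1 arm of the glucocorticoid response element and begins 65 bases before it. Both are common: on either strand, TGACG was found in 20.8% and AGAACA in 19% of 32851 promoters of 300 bases (250 before to 50 after a start). The full cAMP response element TGACGTCA, which contains TGACG, was in 1.79% of them, and the full glucocorticoid element, AGAACA and TGTTCT with 3 bases between, in 3 promoters in all. Promoters were given for 8 of the 10 genes, 19 in number. No full element of either kind was among those letters, TGACG was in 6 of the 19 (*Adcy7*, *Gnas*, *Pde4b* and *Pth1r*) and AGAACA in 5 (*Gnas*, *Pde4b* and *Pth1r*). A match of letters is a description and not a binding site. Which of the 3 annotated *Pth1r* starts these cells used was not tested.

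*Gnas* (ENSMUSG00000027523, chromosome 2, 174284320 to 174346744 of GRCm38, plus strand) encodes Gsα, which links the receptor to the cyclases. Its normalized counts were 2452, 2793 and 2862 with vehicle and 2382, 2519 and 2548 with corticosterone. The first vehicle library lay within the corticosterone range and the other 2 above it. The means were 2703 ± 220 and 2483 ± 88.7 (SD, n = 3 per treatment; log2 fold change -0.12, SE 0.06, limma adjusted p = 0.19). The 95% interval of the fold, 0.847 to 1.00, left room for a decrease of a size far under that of *Pth1r* and hardly any for an increase. The adjusted p went under 0.05 in 3 of 22 alternatives, 0.0259 without the first vehicle library, 0.0417 with upper-quartile scaling and 0.0416 with edgeR without a filter. The locus makes several overlapping transcripts. Of its exon bases, 8.83% are shared with the antisense gene *Nespas* (mean 10.2) and 13.1% with *Gm20721* (mean 1.39), and 19.9% of its 31-base stretches (31-mers) also occur in transcripts of other genes.

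*Adcy7* (ENSMUSG00000031659, chromosome 8, 88272403 to 88329962 of GRCm38, plus strand) encodes 1 of the membrane adenylyl cyclases, which make cAMP. Its normalized counts were 463, 439.9 and 471 with vehicle and 503, 532 and 500.2 with corticosterone. All 3 corticosterone libraries were above all 3 vehicle libraries, by a small margin. With means of 458 ± 16.0 and 512 ± 17.8 (SD, n = 3 each), its log2 fold change was 0.16 (SE 0.07, 95% interval 0.02 to 0.30, limma adjusted p = 0.132). The adjusted p ranged from 0.0929 to 0.494 over the 22 alternatives and never passed.

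*Prkar2b* (ENSMUSG00000002997, chromosome 12, 31958476 to 32061296 of GRCm38, minus strand) encodes the type II-beta regulatory subunit of protein kinase A, which holds the kinase inactive until cAMP binds. The vehicle libraries had normalized counts of 693, 699 and 594 and the corticosterone libraries 483, 532 and 495. The third vehicle library was the lowest of its group but still above all corticosterone libraries. The mean fell from 662 ± 59.3 to 503 ± 25.8 (SD, n = 3 per treatment; log2 fold change -0.39, SE 0.07, 95% interval -0.55 to -0.23, limma adjusted p = 0.00122). It kept its call in 21 of 22 alternatives and lost it without a trend in the prior variance (adjusted p = 0.0969).

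Among the phosphodiesterases, *Pde4d* (ENSMUSG00000021699, chromosome 13, 108449948 to 109953461 of GRCm38, plus strand) encodes a cAMP-specific enzyme of the PDE4 family. It had normalized counts of 174, 169.8 and 187 with vehicle and 163, 136 and 157 with corticosterone. The corticosterone libraries were all below the vehicle libraries, although the gap between the nearest 2 was small. Its log2 fold change was -0.22 (SE 0.11, 95% interval -0.46 to 0.02, limma adjusted p = 0.235).

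*Pde3a* (ENSMUSG00000041741, chromosome 6, 141249269 to 141507448 of GRCm38, plus strand) encodes a phosphodiesterase that cGMP inhibits. Its normalized counts were 98.9, 115 and 112 with vehicle and 107, 148 and 116 with corticosterone. The treatments overlapped, with the second corticosterone library standing above the others. The log2 fold change was 0.18 (SE 0.15, 95% interval -0.13 to 0.49, limma adjusted p = 0.505). Of its exon bases, 5.82% lie opposite the antisense gene *Gm28523* (mean 5.03).

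*Pde4b* (ENSMUSG00000028525, chromosome 4, 102087543 to 102607259 of GRCm38, plus strand) encodes another PDE4 enzyme, known as a cAMP-inducible one. Its normalized counts, 17.0, 16.2 and 18.6 with vehicle and 18.2, 18.8 and 14.1 with corticosterone, rest on 11 to 21 reads per library. The treatments overlapped, and the third corticosterone library was the lowest. The log2 fold change was -0.03 (SE 0.36, limma adjusted p = 0.979), with a 95% interval of -0.79 to 0.73.

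*Pde7b* (ENSMUSG00000019990, chromosome 10, 20398004 to 20725078 of GRCm38, minus strand) encodes a cAMP-specific phosphodiesterase of the PDE7 family. It had normalized counts of 10.5, 1.54 and 2.07 with vehicle and 4.28, 0 and 8.96 with corticosterone, from 0 to 13 reads per library. In 3 of the 6 libraries it lay under the floor of 3 reads, and no difference was detectable at this depth (log2 fold change -1.09, 95% interval -4.11 to 1.94, limma adjusted p = 0.696). Without the second corticosterone library the log2 fold change was 0.91, so its sign rests on 1 library.

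*Crem* (ENSMUSG00000063889, chromosome 18, 3266048 to 3337748 of GRCm38, minus strand) encodes the cAMP-responsive modulator, which includes a short cAMP-inducible repressor form. Its normalized counts were 115, 117 and 109.6 with vehicle and 80.3, 102 and 105 with corticosterone. All corticosterone libraries were below all vehicle libraries, and the first of them stood well below the other 2. The log2 fold change was -0.26 (SE 0.14, 95% interval -0.57 to 0.05, limma adjusted p = 0.287). The table sums all transcripts of a gene, so that activator and repressor forms were not told apart. Of its exon bases, 8.01% lie opposite *Gm6225* (mean 5.80).

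**Figure D2:**
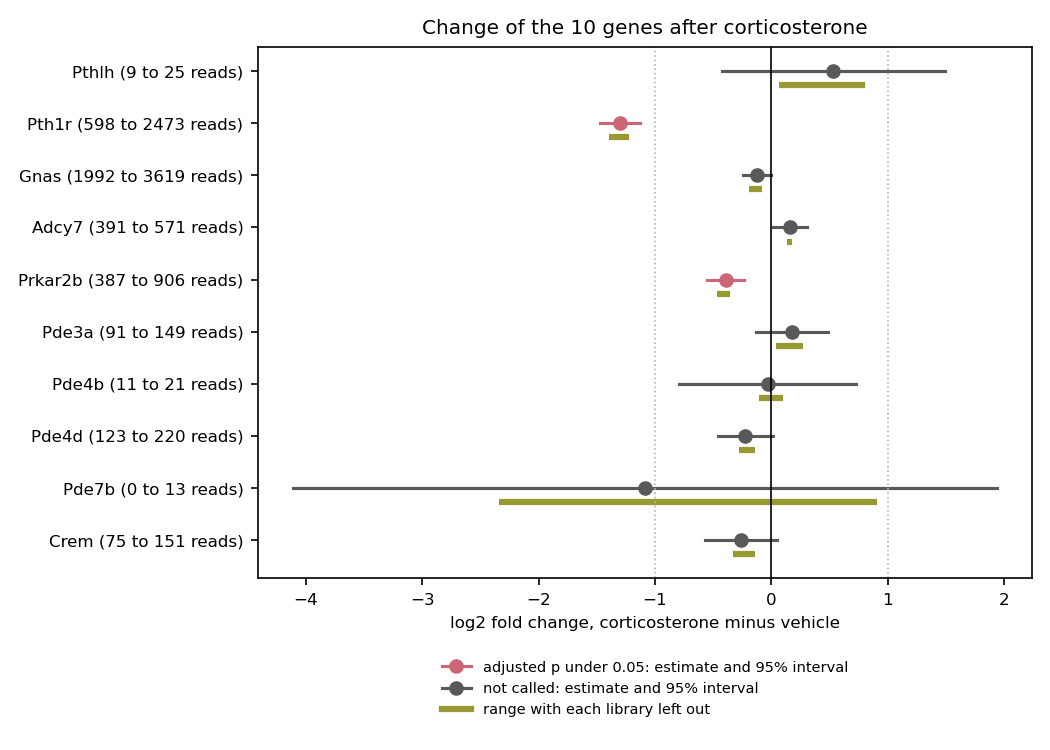
Log2 fold change (corticosterone minus vehicle) of the 10 genes, with 95% intervals from limma as lines and the range over fits that each leave out 1 library as bars under them; the lowest and highest read number of a library stand beside each name. *Pth1r* at -1.30 and *Prkar2b* at -0.39 are the called genes, and the widest interval belongs to *Pde7b*, with 0 to 13 reads.

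**Figure D3:**
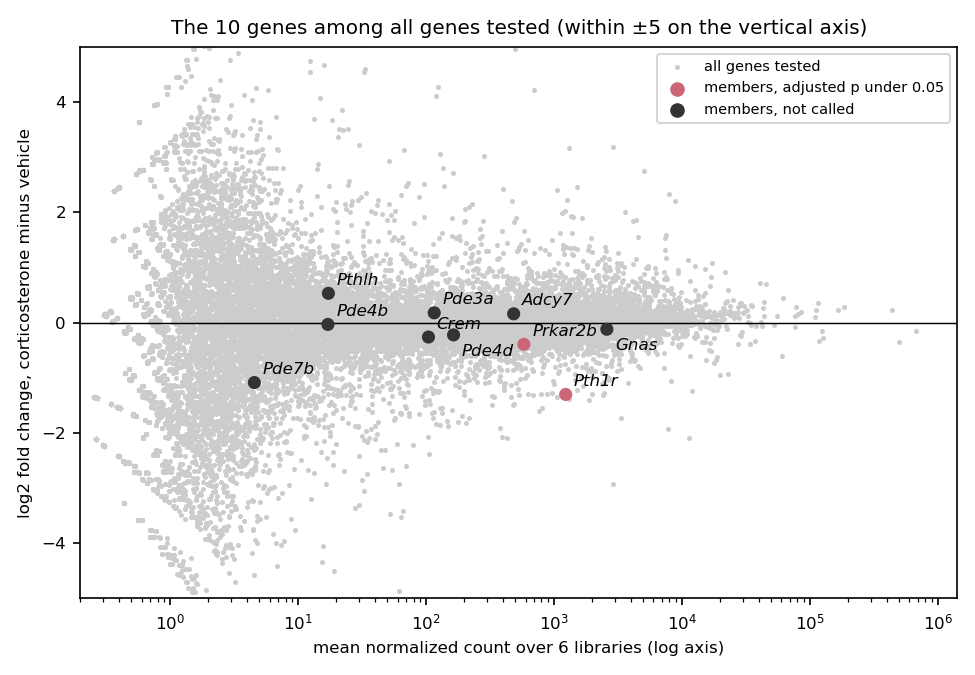
Mean normalized count over 6 libraries (log axis) against the log2 fold change for all 24016 genes tested (grey) and the 10 genes (labelled); 42 genes beyond ±5 are not drawn. The cloud is widest among genes with few reads, where *Pde7b* lies at -1.09, and narrower where *Pth1r* lies at -1.30.

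Levels of different genes can be compared only per length, here as normalized count per kb of all annotated exon bases. With vehicle the order of the 10 genes was *Pth1r* (602 ± 67.5, SD, n = 3), *Gnas* (242 ± 19.6), *Prkar2b* (181 ± 16.2), *Adcy7* (68.0 ± 2.37), *Crem* (19.3 ± 0.619), *Pde4d* (14.7 ± 0.764), *Pthlh* (9.06 ± 4.17), *Pde3a* (8.52 ± 0.667), *Pde4b* (1.64 ± 0.116) and *Pde7b* (0.379 ± 0.406). The only neighbours in that order to overlap were *Pthlh* and *Pde3a*. With corticosterone the order of the means was the same. *Pthlh* then overlapped both its neighbours, and *Pth1r*, at 219 to 262 per kb, overlapped *Gnas*, at 213 to 228. This order depends on the length used. The exons of *Gnas* together span 11186 bases, whereas its median transcript has 1706, and per median transcript it ranked 1 and *Pth1r* 2 with vehicle. By that length *Crem* ranked 4, *Pde4d* 5 and *Adcy7* 6, and *Pde3a* came before *Pthlh*, while *Prkar2b*, *Pde4b* and *Pde7b* kept their ranks. No test was made between genes.

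Among 12 Gs-coupled receptors measured in these cells, *Pth1r* had the highest level per length and made up 75.7% of their summed level with vehicle and 60.5% with corticosterone. The sum per kb was 794 ± 75.6 and 402 ± 26.1 (SD, n = 3 each).

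Among 11 phosphodiesterases, the 4 of the 10 genes were minor at the RNA level. *Pde8a* had 555 ± 15.6 per kb with vehicle, *Pde7a* 174 ± 5.00 and *Pde4a* 88.1 ± 6.25. *Pde4d* ranked 5, *Pde3a* 6, *Pde4b* 9 and *Pde7b* 11, and *Pde8a* alone made up 63.1% of the summed level. With corticosterone the sum of the 11 was 650.3 ± 12.9 per kb against 880 ± 18.6 (SD, n = 3 each), and the share of *Pde8a* was 50.5%. *Adcy7* ranked 4 of 7 cyclases, after *Adcy6*, *Adcy3* and *Adcy9*, with 11.2% of their sum with vehicle and 12.7% with corticosterone. The cyclase sums, 592 to 628 and 573 to 622 per kb, overlapped. *Prkar2b* ranked 5 of 6 protein kinase A subunits, with 5.49% and 4.73% of a sum that *Prkar1a* led with 1554 ± 22.6 per kb.

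**Figure D4:**
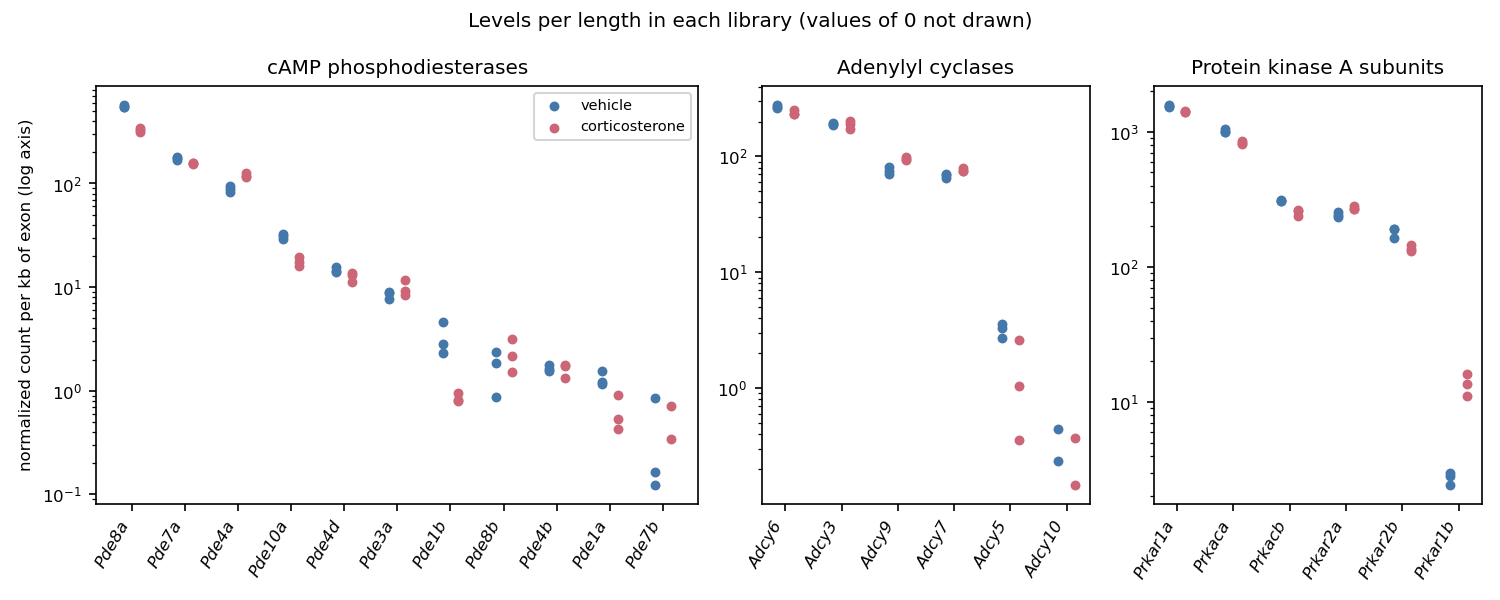
Normalized count per kb of annotated exon (log axis) in each vehicle and corticosterone library for phosphodiesterases, adenylyl cyclases and protein kinase A subunits, in order of the vehicle mean; values of 0, among them the second corticosterone library of *Pde7b*, are not drawn, nor is *Adcy4*, listed at 0 with vehicle. *Pde8a* leads the phosphodiesterases with a mean of 555 per kb with vehicle, while *Pde4b* and *Pde7b* lie at 1.64 and 0.379.

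The rest of the pathway was described with 11 short lists of 139 genes, of which 120 had values. Of these 120, 20 rose and 27 fell, 39.2% in all, and 4 and 8 of them passed the study's threshold. Of the 97 list genes with a mean of at least 10, 48.5% were called, beside 27.7% of all 13880 genes at that mean. The lists were chosen with earlier results of these data known, so these shares are a description and not a test of the pathway. The median log2 fold change of the 120 was -0.10. With upper-quartile scaling 15 rose and 36 fell, and with libraries scaled to the same total 15 and 34. Without a variance trend 11 rose and 8 fell. By list, 28.6% of Gs-coupled receptors, 30% of G protein subunits, 33.3% of A-kinase anchoring proteins and 25% of CREB-related genes were called. These shares lie near the 27.7% of all genes at a mean of at least 10. The share was 11.1% for other cAMP effectors, 37.5% for cyclases and 41.2% for targets. It was 70% for genes that turn receptors off, 71.4% for phosphodiesterases and 85.7% for protein kinase A genes, beside 16.7% of all genes.

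Upstream of the G protein, 1 of 14 other Gs-coupled receptors and their partners rose and 3 fell. Without any 1 of the vehicle libraries, 1 fell. The rise was that of *Ramp1*, by 0.56. Its call was lost without the first or the third library of either treatment (limma adjusted p from 0.0528 to 0.104). *Ptger4*, the prostaglandin E2 receptor EP4, fell from 38.9, 38.6 and 46.5 normalized counts to 16.1, 12.1 and 14.1 (log2 fold change -1.55, limma adjusted p = 0.00138). *Adora2b*, an adenosine receptor, fell by 2.67 on the log2 scale (adjusted p = 0.00941) from 17.6 to 23.2 with vehicle to 1.07 to 7.68 with corticosterone, at 1 to 30 reads. Its adjusted p was 0.0632, 0.071 and 0.0891 without the first, the second and the third vehicle library. *Ramp2*, a partner of calcitonin-family and PTH receptors, changed by -1.32 (adjusted p = 0.0364), a call kept in 13 of 22 alternatives and lost without any 1 library (adjusted p from 0.097 to 0.153) except the third corticosterone library. *Pth2r*, the other PTH-family receptor, had 1 to 6 reads per library and no difference that could be seen (log2 fold change -0.05, adjusted p = 0.986).

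Of 20 G protein subunits 2 rose and 4 fell, and without a variance trend the 4 falls were lost. *Gnb2*, the gene of the list with the highest mean normalized count, not divided by length, had a log2 fold change of -0.10 (adjusted p = 0.0694, under 0.05 in 10 of 22 alternatives). *Gng2*, at 8 to 50 reads, fell by 1.30 (adjusted p = 0.0296). Its adjusted p was 0.0811 and 0.109 without the first and second corticosterone library, and 0.152 and 0.175 without the second and the third vehicle library. The inhibitory subunits, named after their values were seen, did not all move one way. *Gnai2* fell by 0.29 (adjusted p = 4.92e-05), *Gnai3* also fell, by 0.16, and *Gnao1* rose by 0.44 (adjusted p = 9.46e-07).

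Genes that turn receptors off or recycle them were called in 7 of 10 cases, 4 up and 3 down. Without the first or the third corticosterone or the third vehicle library 2 rose and 2 fell, with same-total or upper-quartile scaling 2 rose and 4 fell, and without a variance trend 1 was called, upward. The gene with the highest mean normalized count, the retromer gene *Vps35*, had a log2 fold change of -0.09 (adjusted p = 0.199). Chosen after their values were seen, *Arrb1*, which encodes β-arrestin 1, rose from 144 ± 10.7 to 276 ± 40.3 (SD, n = 3 per treatment; log2 fold change 0.93, limma adjusted p = 2.12e-05). *Slc9a3r1*, which encodes NHERF1, a scaffold that binds the PTH receptor, rose by 0.43 (adjusted p = 0.00149). The receptor kinase gene *Grk3* fell by 0.57 (adjusted p = 0.000117). Among the other called genes of the list, the receptor kinase genes *Grk5* and *Grk6* rose by 0.18 and 0.15. *Slc9a3r2* and *Snx27* fell by 0.31 and 0.16. The calls of *Grk6* and *Snx27* were lost without any 1 library. That of *Grk5* was lost without the first or the third corticosterone or the third vehicle library.

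Among 8 other genes of cyclases and cyclase-associated proteins, 1 rose and 2 fell, or 1 fell without the first corticosterone or the first or the third vehicle library. The gene with the highest mean normalized count, *Cap1*, had a log2 fold change of 0.09 (adjusted p = 0.152), whose sign turned with quantile normalization. Chosen after their values were seen, *Adcy9* rose by 0.34 (adjusted p = 0.00357), and *Adcy6*, the most abundant cyclase per length, fell by 0.17 (adjusted p = 0.0269). The call of *Adcy6* was lost without the first or the third vehicle library (0.0628 and 0.147) or the first or second corticosterone library (0.138 and 0.111). The other fall was that of *Cap2*, by 0.75 (limma adjusted p = 1.3e-05). *Adcy5* was not called in the main fit, but its adjusted p was under 0.05 in some alternatives, among them 0.0335 with a minimum mean of 10.

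Protein kinase A genes other than *Prkar2b* were called in 6 of 7 cases, 2 up and 4 down. Without any 1 library except the first vehicle library 1 rose, as *Prkar2a*, up by 0.17, lost its call (limma adjusted p from 0.0663 to 0.128). Without the third corticosterone library 3 fell, as the inhibitor gene *Pkig*, down by 0.29, lost its call (0.0567). The rise of *Prkar1b*, a regulatory subunit known best from neurons, stood out, from 11.4, 10.8 and 9.31 normalized counts to 51.4, 42.0 and 61.4 (log2 fold change 2.28, SE 0.31, limma adjusted p = 4.96e-05). It rests on 9 to 48 reads and held in all 22 alternatives, but at 13.5 ± 2.55 per kb it remained the lowest of the 6 subunits. The main regulatory subunit gene *Prkar1a* fell by 0.15 (adjusted p = 0.0114). The catalytic genes, outside the naming rule, both fell: *Prkaca* from 2520 ± 64.1 to 2077 ± 44.7 (log2 fold change -0.28, limma adjusted p = 0.000224) and *Prkacb* from 2703 ± 41.6 to 2224 ± 117 (-0.28, adjusted p = 0.000394). The summed level per kb of the 6 subunits was 3301 ± 12.0 with vehicle and 2916 ± 37.1 with corticosterone (SD, n = 3 each). Without a variance trend 1 of the 7 rose and the 4 falls were lost.

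Of 7 other phosphodiesterases 1 rose and 4 fell, or 2 fell without the first or second vehicle library. *Pde8a*, a high-affinity cAMP phosphodiesterase, had 2187, 2234 and 2312 normalized counts with vehicle and 1275, 1385 and 1327 with corticosterone. All corticosterone libraries were far below all vehicle libraries, and the mean fell from 2244 ± 63.1 to 1329 ± 55.0 (SD, n = 3 per treatment; log2 fold change -0.76, SE 0.05, limma adjusted p = 1.02e-08) that held in all 22 alternatives. *Pde1b*, a calcium-dependent enzyme, fell by 1.85 (adjusted p = 0.0208), at 4 to 32 reads. Its adjusted p was 0.0648 without the first and 0.117 without the second vehicle library. Among those chosen after their values were seen, *Pde10a* fell by 0.81 (adjusted p = 5.93e-06) and *Pde4a* rose from 674 ± 47.8 to 919 ± 40.0 (SD, n = 3 per treatment; log2 fold change 0.45, limma adjusted p = 9.15e-05). *Pde4a* is of the same family as *Pde4b* and *Pde4d*, which did not pass the test.

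**Figure D5:**
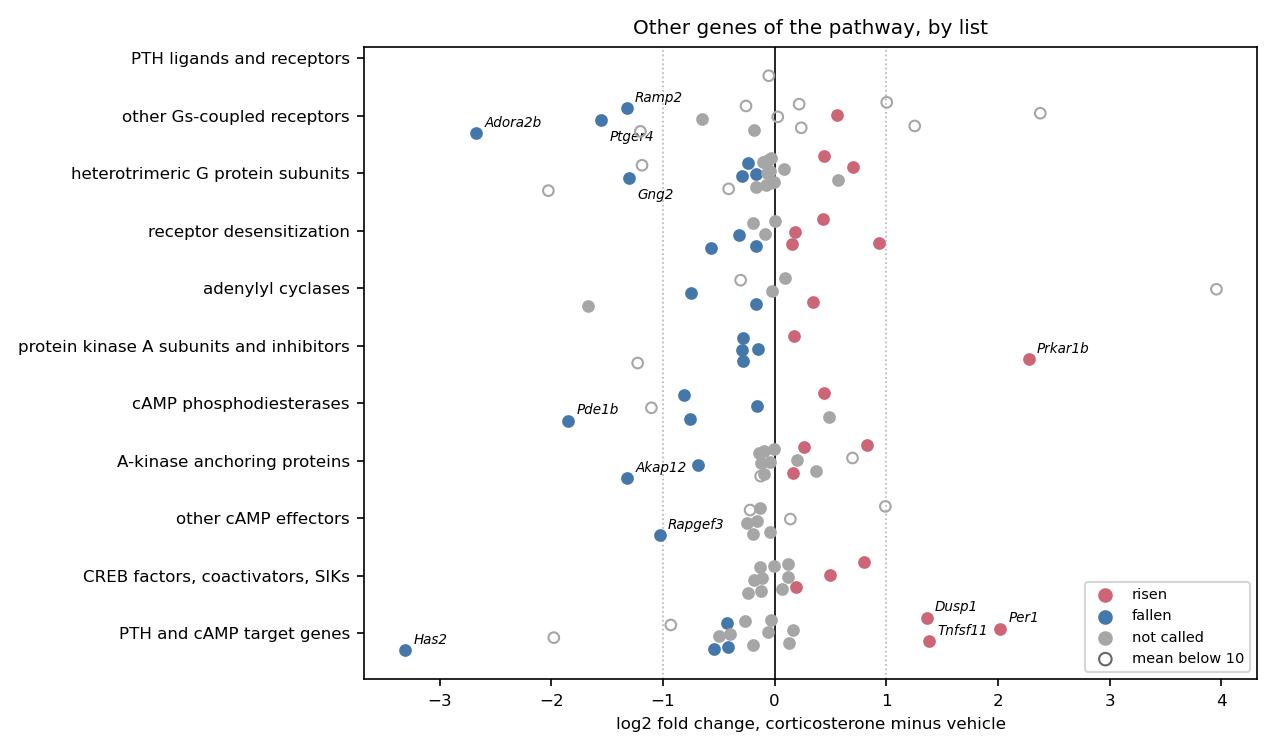
Log2 fold change (corticosterone minus vehicle) of 120 other pathway genes, 1 row of points per list, coloured by whether they rose, fell or were not called, with open points for means below 10; points are spread vertically within a list only for legibility. Labels mark the genes past the study's threshold with a mean of at least 10, from *Has2* at -3.31 to *Prkar1b* at 2.28.

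A-kinase anchoring proteins, which place the kinase near its targets, rose in 3 and fell in 2 of 15 cases. Without any 1 library 2 rose and 2 fell, and the rise of *Akap1*, by 0.16, lost its call each time. *Akap12* fell from 765 ± 62.8 to 308 ± 34.2 (SD, n = 3 per treatment; log2 fold change -1.32, SE 0.09, limma adjusted p = 1.27e-08), in all 22 alternatives. *Akap13*, with the highest mean normalized count of the list, had a log2 fold change of -0.04 (adjusted p = 0.744). Of 9 other cAMP effectors 1 passed the test, whereas 3 did with edgeR and with quantile, same-total or upper-quartile scaling. That gene, *Rapgef3*, the exchange factor EPAC1, fell by 1.03 (adjusted p = 0.0478), a call kept in 12 of 22 alternatives. It was lost without any 1 library (adjusted p from 0.0579 to 0.278) except the second corticosterone library. The effector with the highest mean normalized count, *Rap1b*, had a log2 fold change of -0.13 (adjusted p = 0.0681), with an adjusted p under 0.05 in 9 of 22 alternatives, among them 0.0391 without the second vehicle library.

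At the nuclear end, 3 of 12 genes of CREB factors, their coactivators and salt-inducible kinases passed the test, all upward. With libraries scaled to the same total 2 rose and 3 fell, with upper-quartile scaling 2 rose and 2 fell, and without the first vehicle library 2 rose and 1 fell. The coactivator gene *Ep300* rose by 0.50 on the log2 scale (limma adjusted p = 3.67e-07). *Sik1*, itself a cAMP-inducible gene and chosen after its values were seen, rose by 0.81 (adjusted p = 1.41e-06), and *Creb1* had a log2 fold change of -0.12 (adjusted p = 0.217). The third gene to rise, *Atf1*, rose by 0.19. Its call was lost without any 1 library except the third vehicle library (adjusted p from 0.053 to 0.103).

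Of 17 genes listed as targets of PTH or cAMP, without a direction set for each, 3 rose and 4 fell. The number that fell was 1 without the third vehicle library and 2 without the second vehicle, the second corticosterone or the third corticosterone library. The 3 that rose were *Per1* (2.02), *Dusp1* (1.36) and *Tnfsf11* (1.38), all of which glucocorticoids are known to raise as well. Without the third corticosterone library the adjusted p of *Tnfsf11* was 0.0523. *Has2*, a hyaluronan synthase, fell by 3.31 (limma adjusted p = 0.000962), from 46.2, 49.4 and 62.1 to 8.57, 12.1 and 1.28 normalized counts. Its adjusted p was 0.0686 without the third vehicle library, and its log2 fold change ranged from -3.92 to -2.34 with a library left out. The value of 1.28 lies under the floor of 3 reads. The orphan receptor gene *Nr4a2*, chosen after its values were seen, fell by 0.42 (adjusted p = 0.011) and kept its call with any library left out. The other 2 that fell, *Nr4a1* (-0.54, adjusted p = 0.0243) and *Mef2c* (-0.42, adjusted p = 0.0285), lost their calls without 5 and 4 of the 6 libraries in turn, with adjusted p up to 0.218 and 0.193. The collagenase gene *Mmp13*, with the highest mean normalized count of the list, had a log2 fold change of 0.13 (adjusted p = 0.327). *Fos* had -0.40 (adjusted p = 0.09) and *Fosb* -0.04 (adjusted p = 0.936). The cultures received no added PTH that the labels name, so these values are levels without such a stimulus.

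Likeness to *Pth1r* was measured by Pearson's r of the log2 values over the 6 libraries. The most alike among 10557 other genes with a mean of at least 100 were *Ralgps1*, *Col3a1*, *Gpc1*, *Flrt2* and *Cryz*, with r from 0.998 to 0.999. The 6 points form 2 treatment groups and share their libraries, and 729 genes had an r over 0.95, so this is a description of shared order over the libraries and no more. The size of the change differed among them: the log2 fold change was -0.82 for *Gpc1*, a glypican, -0.60 for the collagen gene *Col3a1* and -0.17 for *Cryz*, whose adjusted p was 0.0553.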

How the data were processed

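RNA-seq of 3 vehicle and 3 corticosterone cultures was analysed. The signal that the authors deposited is labelled FPKM. Within a library its values are all whole multiples of a single step (100%, to within 0.01 reads), so the deposited signal is a read count divided by a size factor, of 0.782 to 1.30. The submitters' processing notes name the build mm10. The aligner, the counting program and its strand setting are not given in the sources used here. Per the labels, libraries were made with a NEBNext Ultra RNA kit.

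With R 4.3.3 and limma 3.58.1 (lmFit, eBayes with trend), log2(value + 0.1) was tested. A minimum mean of 0.1 removed no gene. P-values were adjusted by the Benjamini-Hochberg method. The design assumed FPKM and was kept as written, with edgeR 4.0.16 and DESeq2 1.42.0 on the recovered reads among 22 alternatives. Fold changes are on the log2(value + 0.1) scale. At low read numbers they vary with the pseudocount and can differ from the ratio of the means. The members, lists and alternatives were chosen with earlier results of these data known. All 10 members are named, with the pathway genes that passed both the adjusted p of 0.05 and a log2 fold change of 1 in size, at a minimum mean of 10, and the gene of each list with the highest mean normalized count, which was not divided by length. The single-gene result of 1 gene that this rule names is not reported here. Likeness was ranked by Pearson's r at a mean of at least 100.

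No 2 libraries agreed within sampling noise (chi-square per degree of freedom at least 3.58). On simulated counts of 23730 genes, 200 of them changed by 1.5 on the log2 scale, limma recovered 178 with 1 false call, edgeR 190 with 10 and DESeq2 182 with 14. The simulation gave every gene the same dispersion and changed only genes with a mean of at least 10. Its error rates therefore need not hold for the data, above all at low read numbers. GENCODE (GRCm38) gave symbols, positions and lengths for 24008 of 24016 identifiers, and RefSeq the promoters. The 95% intervals come from the limma fit and cover the spread between libraries, whereas the floor of 3 reads covers counting error only. Protein sequences were not used here. Python 3.11.15, pandas 2.3.3, scipy 1.17.1 and matplotlib 3.10.9 were used.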

Additional observations from a re-analysis of the deposited data

How the results depend on the processing

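*Pth1r* kept its call in all 22 alternatives and *Prkar2b* in 21. *Gnas* gained a call in 3, and the other 7 genes were called in none that gave an adjusted p. Without a variance trend 1 of the 10 genes fell, 11 and 8 pathway genes rose and fell, and 873 and 760 of all genes. With DESeq2 and the replicate block 17 pathway genes and 1254 of all genes fell, and with upper-quartile scaling 1349 of all genes rose. Leaving out 1 library at a time gave 1148 to 1611 falling genes in all, the fewest without the third vehicle library. The log2 fold change of *Pth2r* turned to 0.00997 (DESeq2 with the replicate block), 0.27 (DESeq2), 0.24 (edgeR without a filter) and 0.0096 (pseudocount 1), and lay between -0.85 and 0.41 with a library left out. *Cap1* was at -0.010 with quantile normalization. With a library left out, *Pde7b* ranged from -2.34 to 0.91, *Pde4b* from -0.11 to 0.10 and *Akap13* from -0.12 to 0.014. The cause was not tested.

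With the replicate block in limma, 2012 genes rose and 1893 fell, 2 of the 10 genes fell, and 20 pathway genes rose and 26 fell. Among the pathway genes named by rule, the block ended the call of *Rapgef3* (adjusted p = 0.0667). The labels give both treatments the numbers 1 to 3 without saying that they pair the cultures, and same-numbered libraries had correlations of deviations of -0.044, 0.0014 and 0.023 over 13880 genes. Depth limits *Pthlh*, *Pde4b* and *Pde7b*, with at most 25, 21 and 13 reads per library.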
